A study of Mus musculus with 6 samples.

Results

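The genes described here encode the DNA replication machinery, the proteins that mark and open replication origins, unwind and copy DNA and make its nucleotide precursors. They are a named list of 44 genes, matched by Ensembl gene identifier to GENCODE symbols, out of 56953 genes in the table. All 44 were found, and 43 were tested, since Tk1 was listed at 0 in every library. RNA was sequenced from MEFs (mouse embryonic fibroblasts, cultured connective tissue cells of embryonic origin) in 6 libraries, of which 3 carry the label WT and 3 the label GαqKO. Both kinds of cells were grown in the same serum-containing medium, the labels name no treatment, and the methods describe the GαqKO cells as lacking Gαq/11 and both kinds of cells as obtained from another laboratory. Age, strain and the number of clones behind each line are not given in the sources used here. Levels are given as normalized counts, reads counted per gene and divided by 1 size factor per library. They summed to between 11392429 and 11483486 per library, and the depth was 9853000 to 12229175 reads in the 5 libraries whose recovered whole reads were used. Fold changes are GαqKO minus WT on the log2(normalized count + 1) scale, and adjusted p-values come from limma over the 14096 genes that reached 10 normalized counts in 3 or more libraries.

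Gnaq, the gene of Gαq, was at 1666, 1660.2 and 1747 normalized counts in WT replicates 1, 2 and 3 and at 1959.7, 1931 and 1888 in the libraries labelled GαqKO (log2 fold change 0.19, standard error 0.0447, adjusted p = 0.00212 from limma). Its transcript was therefore not lower in the knockout libraries, whereas that of Gna11 fell from 2148 ± 29.0 to 452 ± 28.7 normalized counts (n = 3 each, SD), so directions below are drawn from the labels. The lines also differed in Y-linked genes, with Ddx3y between 1139 and 1239 normalized counts in WT and listed at 0 in each GαqKO library, so genotype and other differences between the lines cannot be told apart. Of 10 fibroblast markers, 8 reached 10 normalized counts in every library, and the sum of the 10 ranged from 84380 to 90130 in WT and from 61320 to 64520 in GαqKO. Of the 9 tested, 5 were lower and 4 higher. Col1a1 fell from 16671 ± 1168 to 5774 ± 272, and Fn1 and Vim had log2 fold changes of -0.73 and -0.32. Pdgfra rose from 19.6 ± 2.2 to 2319.7 ± 42.0 and Thy1 from 0.7 ± 1.2 to 64.9 ± 10.1 (n = 3 each, SD), and Fap was near 0 in both groups. The 4 epithelial markers summed to 492.5 to 507.5 in WT, almost all Cdh1 and Krt14, and to 9.1 to 20.8 in GαqKO. The 4 immune markers summed to at most 115.0 normalized counts in any library, the 4 endothelial markers to at most 25.4 and the 3 skeletal muscle markers to at most 18.5. The 3 nervous markers, mainly Tubb3, summed to 366.4 to 433.3 in WT and to 50.4 to 76.3 in GαqKO, and the part of these markers in the values below was not tested.

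Origins are prepared for replication in G1, when the origin recognition complex (ORC) together with CDC6 and CDT1 loads the ring-shaped MCM2-7 helicase onto DNA. In S phase the helicase is activated by CDC45 and the GINS complex, polymerase alpha-primase lays down primers, and polymerases delta and epsilon extend them while held by the PCNA clamp, which the RFC complex loads. RPA coats single-stranded DNA, FEN1 and LIG1 finish the lagging strand, and ribonucleotide reductase, thymidine kinase and thymidylate synthase supply deoxynucleotides. Many of these genes are known targets of the E2F transcription factors and are expressed mostly in dividing cells. In bulk libraries, fewer cells in S phase and less RNA per cell cannot be told apart.

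Because E2F factors act on many of these genes together, the promoters were searched for the E2F letters TTTCCCGC, TTTCGCGC, TTTGGCGC and TTTGCCGC on both strands. RefSeq windows on GRCm38.p6, from 250 bases before to 50 bases after each start, were found for 37 of the 44 genes. A match was present for 15 of the 37 genes (40.5%), whereas 2.26% of the 32851 windows of all genes and 2.6% of all gene symbols held one. Of the 15 genes with a match, 7 were higher, 5 were lower and 3 were not called in GαqKO libraries, with a median log2 fold change of 0.05, where 31.8% of all genes tested were higher, 34.1% lower and 65.8% either. Among the 22 without a match the counts were 6 higher, 9 lower, 6 not called and 1 not tested, with a median of -0.09. The 30-base windows below show the letters in the 3 genes with a match that fell most (Orc1, Orc3, Cdc6), the 3 that rose most (Pold1, Cdt1, Mcm6) and Mcm5, in which matches on opposite strands overlap as they do in Mcm6. They are written 5′ to 3′ on the strand of the gene, with the matched letters in capitals.
Orc1: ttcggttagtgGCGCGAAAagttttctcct
Orc3: ccatgcctcccTTTCCCGCacgccccgcct
Cdc6: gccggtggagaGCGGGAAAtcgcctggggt
Pold1: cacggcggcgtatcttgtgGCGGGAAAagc
Cdt1: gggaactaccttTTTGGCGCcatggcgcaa
Mcm6: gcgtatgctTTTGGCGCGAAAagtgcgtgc
Mcm5: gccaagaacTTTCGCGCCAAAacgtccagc
On GRCm38.p6 these windows lie at chr4:108579416-108579445 (plus strand), chr4:34614965-34614994 (minus strand), chr11:98908002-98908031 (plus strand), chr7:44548766-44548795 (minus strand), chr8:122568035-122568064 (plus strand), chr1:128359795-128359824 (minus strand) and chr8:75109347-75109376 (plus strand). The first match starts 27 bases before the transcription start in Orc1, 41 before in Orc3, 138 before in Cdc6, 110 before in Mcm6 and 153 before in Mcm5, and 39 and 32 bases after it in Pold1 and Cdt1. A match is a description of the letters and does not show that a factor bound there.

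Replication genes were shifted in both directions and by small amounts in GαqKO MEFs, while the ranges of their combined level overlapped. Together the 44 genes summed to 45066, 45787 and 44114 normalized counts in WT replicates 1, 2 and 3 and to 45098, 44305 and 44552 in GαqKO, which is 0.393% ± 0.00699 and 0.391% ± 0.00191 of all normalized counts (n = 3 each, SD). At an adjusted p under 0.05, 17 genes were higher and 16 lower of the 43 tested (39.5% and 37.2%), beside 31.8% and 34.1% of all genes tested, and 10 were not called. Taken in either direction 76.7% were called, beside 65.8% of all genes tested and 71.2% of those averaging 100 normalized counts or more. No gene passed the study's thresholds, which add a log2 fold change over 1 or under -1 to that p, whereas 20.7% of all genes tested did and 12.9% of those averaging 100 normalized counts or more, a level that 42 of the 43 reached. In limma that count is 0 at any p, adjusted or not, because no log2 fold change was over 0.82 in size. It was also 0 in edgeR and in DESeq2 on 5 libraries. The log2 fold changes ran from -0.71 in Orc1 to 0.82 in Orc5 with a median of 0.02 (-0.01 for all genes tested). In 35 of the 43 genes (81.4%) the log2 fold change was under 0.5 in size, compared with 58.4% of all genes tested and 66.9% of the more abundant genes.

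The values of the 3 GαqKO and 3 WT libraries did not overlap for 35 of the 43 genes (81.4%), 19 of them with GαqKO higher, beside 69.6% and 33.8% of all genes tested. The spread between replicates was narrow, with a median coefficient of variation of 5.38% in WT and 4.26% in GαqKO, and it was widest for Orc2 in WT (14.4%) and Rfc4 in GαqKO (16.6%). WT replicate 2 and GαqKO replicate 1 each had 29 of the 43 genes above the mean of their group, compared with 18 or 19 in the other 4 libraries. Their median deviations were small, at 0.021 and 0.016 on the log2 scale. The call was lost in DESeq2, run on the reads of 5 libraries, for Orc1, Mcm7, Mcm8, Cdc45, Gins1, Pole2, Rfc2 and Lig1, and in edgeR for Cdc45. When single libraries were left out, the calls of Mcm7 (without WT replicate 1 or GαqKO replicate 2), Cdc45 (without WT replicate 2 or 3 or GαqKO replicate 3) and Pole2 (without WT replicate 1 or 3 or GαqKO replicate 1 or 2) were lost. With the median of each chromosome removed, 10 calls were lost, which are named with the chromosomes below.

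**Figure D1:**
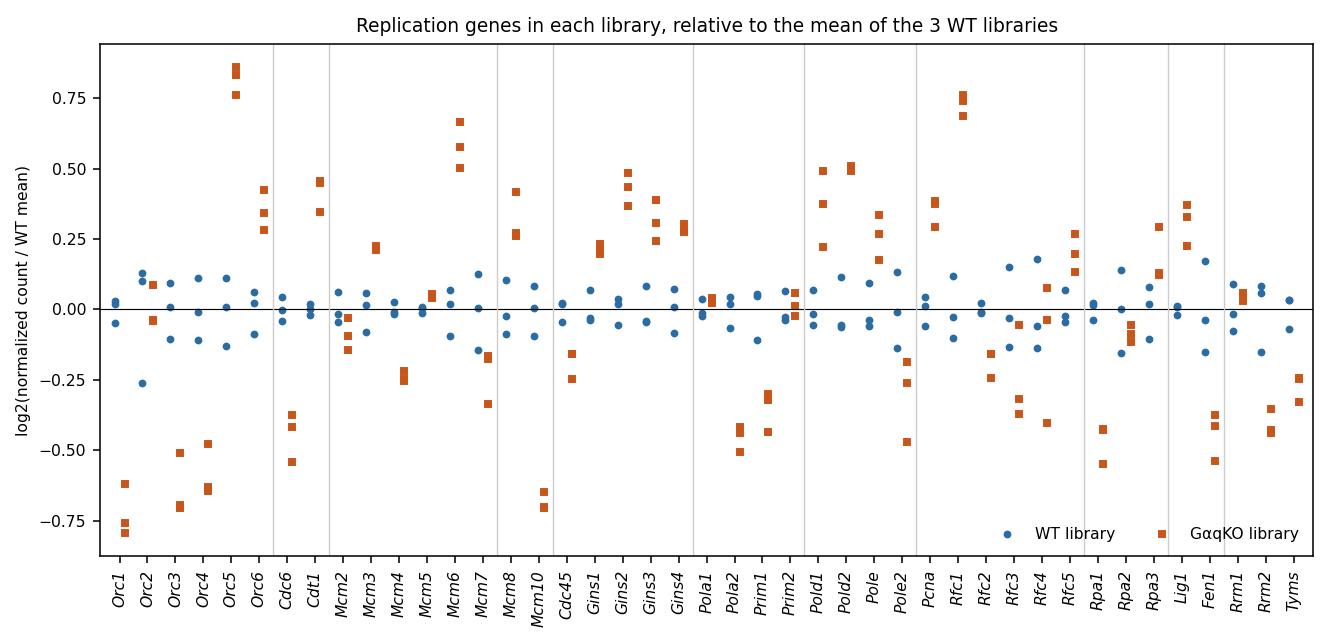
Normalized counts of the 43 replication genes with values in each of the 6 libraries, as log2 of the ratio to the mean of the 3 WT libraries (circles WT, squares GαqKO, grey lines between functional groups). The WT libraries scatter around 0, and GαqKO values lie above them for genes such as Orc5, Mcm6 and Rfc1 and below them for genes such as Orc1, Mcm10 and Rpa1.

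**Figure D2:**
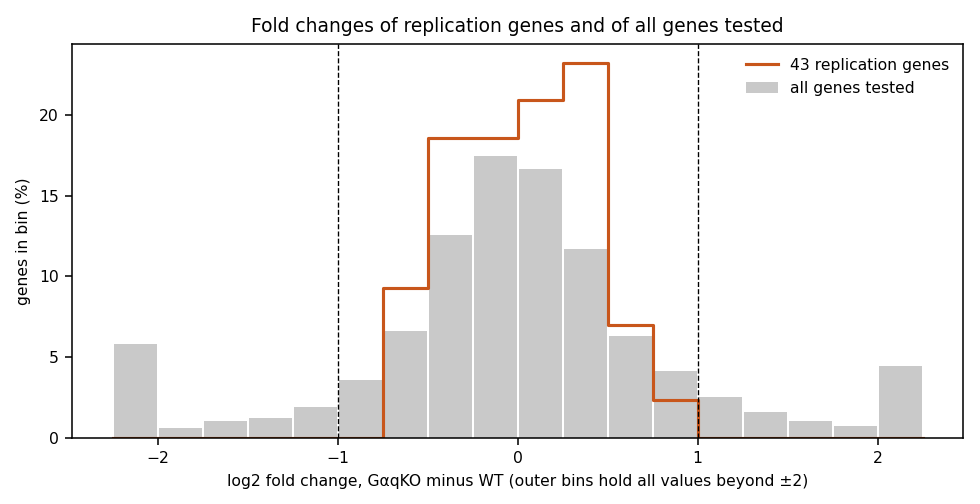
Share of genes (%) in bins of log2 fold change, GαqKO minus WT, for all genes tested (grey bars) and for the 43 replication genes (line), with dashed lines at -1 and 1. All replication genes lie between -0.71 and 0.82, whereas the grey bars reach beyond the dashed lines on both sides.

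The ORC subunits spanned the widest range of fold changes of the functional groups, with Orc1, Orc3 and Orc4 lower, Orc5 and Orc6 higher and Orc2 not called. Orc5 (ENSMUSG00000029012.12, chr5:22691478-22755427 on GRCm39), a subunit of the ORC core, was at 246, 229 and 209 normalized counts in WT and at 414, 406 and 387 in GαqKO (log2 fold change 0.82, standard error 0.0876, adjusted p = 1.86e-06 from limma). Each GαqKO value was above each WT value, and the change was the largest rise among the replication genes. Orc6, the smallest and most loosely bound subunit, rose from 1141, 1174 and 1056 to 1424, 1509 and 1366 normalized counts (log2 fold change 0.35, standard error 0.0565, adjusted p = 9.24e-05 from limma). Orc3 was at 481, 445 and 511 normalized counts in WT and 336, 296 and 294 in GαqKO (log2 fold change -0.63, standard error 0.0835, adjusted p = 1.46e-05 from limma). Orc4 gave 824, 959 and 882 in WT and 574, 637 and 568 in GαqKO (log2 fold change -0.58, standard error 0.0701, adjusted p = 6.08e-06 from limma). The GαqKO libraries were the lower group for both core subunits, without overlap. Orc1 (ENSMUSG00000028587.19, chr4:108436540-108473245), the subunit that binds and hydrolyses ATP during licensing and is degraded after G1 in many cells, had few counts, 54.3, 57.3 and 57.0 in WT and 36.6, 32.4 and 33.2 in GαqKO (log2 fold change -0.71, standard error 0.196, adjusted p = 0.00598 from limma), and 88.4% of its exon bases lie inside the spans of other genes. Orc2 had 90.8, 117 and 119 and 106, 116 and 106 normalized counts, with overlapping groups and a 95% interval of -0.30 to 0.33 for its log2 fold change. WT replicate 1 was the lowest of its 6 values, and 75.3% of its exon bases lie inside another gene's span.

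The proteins that help ORC load the helicase moved in opposite directions. Cdc6, the ATPase that joins ORC at origins, fell from 688, 730.5 and 706 normalized counts in WT to 546, 487 and 529.7 in GαqKO (log2 fold change -0.44, standard error 0.0647, adjusted p = 3.71e-05 from limma). Cdt1, which brings the MCM ring to that platform and is restrained by geminin, rose from 1755, 1779.6 and 1728 to 2227, 2392 and 2407 (log2 fold change 0.42, standard error 0.0461, adjusted p = 2.65e-06 from limma). Neither gene had overlapping groups.

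The summed level of the MCM2-7 helicase genes overlapped between the groups, and single subunits moved in both directions. The 6 genes added up to 12940.0, 13092 and 12607 normalized counts in WT replicates 1, 2 and 3 and to 13221, 12837 and 13135 in GαqKO, with overlapping ranges. Mcm6 (ENSMUSG00000026355.12, chr1:128259311-128287516) rose from 1089, 1005 and 1128 to 1602, 1520.5 and 1702 normalized counts (log2 fold change 0.58, standard error 0.0584, adjusted p = 9.80e-07 from limma), and Mcm3 from 1844, 1899 and 1726 to 2132, 2111 and 2122 (log2 fold change 0.22, standard error 0.047, adjusted p = 0.000982 from limma). Both subunits were higher in every GαqKO library than in any WT library. Mcm4 fell from 2944, 3022 and 2929 to 2497, 2547 and 2487 normalized counts (log2 fold change -0.24, standard error 0.0405, adjusted p = 0.000138 from limma), and Mcm7 from 845, 778 and 701 to 691, 614 and 685 (log2 fold change -0.22, standard error 0.0749, adjusted p = 0.0185 from limma), again without overlap, although GαqKO replicate 1 came close to the lowest WT value of Mcm7. Mcm2 and Mcm5, the most abundant subunits per length, were not called. Mcm2 had 3067 ± 116 and 2883 ± 114 normalized counts (n = 3 each, SD) and a 95% interval of -0.19 to 0.01. It was called lower with chromosome medians removed (-0.15, adjusted p = 0.0133 from limma) and without WT replicate 3 (-0.11, adjusted p = 0.0434 from limma). For Mcm5 the groups did not overlap, at 3187, 3190.2 and 3149 in WT and 3298, 3269.8 and 3267 in GαqKO, but the difference was small (95% interval -0.04 to 0.13 on the log2 scale).

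Outside the ring, Mcm10, a fork protein that helps to activate the helicase, was among the genes that fell most, from 1289.6, 1458 and 1382 to 846, 845 and 877 normalized counts (log2 fold change -0.68, standard error 0.0558, adjusted p = 1.16e-07 from limma). Every GαqKO value lay far below the lowest WT value. Mcm8, which works with MCM9 in recombination repair, rose from 288, 329 and 301 to 367, 370.0 and 409 normalized counts (log2 fold change 0.32, standard error 0.0838, adjusted p = 0.00428 from limma).

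All 4 GINS genes rose and their partner Cdc45 fell. GINS is the 4-subunit complex that, with CDC45, turns the MCM ring into the active helicase. Gins2 gave 513, 546 and 539.5 normalized counts in WT and 746, 720.3 and 687 in GαqKO (log2 fold change 0.43, standard error 0.0615, adjusted p = 3.21e-05 from limma), but 67.3% of its exon bases overlap exons of Gse1. Gins3 gave 986, 983 and 1075 and 1327, 1254 and 1199 (log2 fold change 0.31, standard error 0.057, adjusted p = 0.000272 from limma). Gins4 and Gins1 rose from 497 ± 27.0 to 606 ± 6.0 and from 546 ± 22.7 to 633 ± 7.8 normalized counts (n = 3 each, SD), with log2 fold changes of 0.29 (adjusted p = 0.00142) and 0.21 (adjusted p = 0.00697 from limma). No value of the 4 genes overlapped between the groups, beside 69.6% of all genes tested without overlap (33.8% with GαqKO higher). All 4 were called higher, beside 31.8% of all genes tested and 53.4% of those on chromosome 8. With chromosome medians removed, Gins1 on chromosome 2 was still called higher (0.19). Gins2, Gins3 and Gins4 lie on chromosome 8, where the median over all genes tested was 0.29, and relative to it they were not called. Cdc45 went from 473, 494 and 496 to 437, 437 and 411 normalized counts (log2 fold change -0.19, standard error 0.067, adjusted p = 0.0244 from limma), a small shift whose call depended on single libraries, as given above.

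Of the 4 genes of polymerase alpha-primase, the primer-making complex, 0 were called higher and 2 lower. Of the 4 listed genes of polymerases delta and epsilon, 3 were higher and 1 lower. Over all genes tested 31.8% were higher and 34.1% lower, and the difference between the 2 sets was not tested. With chromosome medians removed Pola1 was called higher, and Prim1 and Pole2 were not called. Pola2 (ENSMUSG00000024833.16, chr19:5990570-6014261), the regulatory subunit of polymerase alpha, fell from 1427, 1541 and 1512 to 1102, 1049.9 and 1119 normalized counts (log2 fold change -0.45, standard error 0.0511, adjusted p = 3.15e-06 from limma). Prim1, the catalytic primase subunit, fell from 752, 839 and 843 to 659, 600.1 and 648 (log2 fold change -0.35, standard error 0.0654, adjusted p = 0.000332 from limma). These are partners of Pola1, the catalytic polymerase subunit, and Prim2, the large primase subunit, which were not called. Pola1 had 789.7 ± 17.2 and 807 ± 5.1 normalized counts (n = 3 each, SD, 95% interval -0.08 to 0.15 on the log2 scale) and Prim2 387 ± 15.5 and 392 ± 11.5 (95% interval -0.14 to 0.17). Their values overlapped between the groups.

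Pold2, the accessory subunit of polymerase delta, was at 961, 854 and 849.9 normalized counts in WT and 1256, 1264 and 1248 in GαqKO (log2 fold change 0.50, standard error 0.0572, adjusted p = 3.56e-06 from limma). Pold1, which holds the polymerase and proofreading activities of delta, was at 640.1, 622 and 679 and 838, 754 and 910.4 (log2 fold change 0.36, standard error 0.0716, adjusted p = 0.000517 from limma). Both lay above WT in every GαqKO library. Pole, the catalytic subunit of the leading-strand polymerase epsilon, rose from 615 ± 35.4 to 737 ± 40.5 normalized counts (n = 3 each, SD; log2 fold change 0.26, standard error 0.0657, adjusted p = 0.00321 from limma). Its second subunit Pole2 moved the other way, from 185, 169 and 204 to 155, 134 and 163 (log2 fold change -0.30, standard error 0.121, adjusted p = 0.0422 from limma), with GαqKO replicate 3 close to the lowest WT value.

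Of the clamp and its loader, Rfc1, Pcna and Rfc5 rose, Rfc2 fell and Rfc3 and Rfc4 were not called. Rfc1 (ENSMUSG00000029191.17, chr5:65418916-65493155), the large subunit that distinguishes the PCNA loader from its relatives, had 1091, 1208 and 1036 normalized counts in WT and 1883, 1791 and 1858 in GαqKO (log2 fold change 0.73, standard error 0.0579, adjusted p = 8.43e-08 from limma). It was the second largest rise among the replication genes. Pcna, the sliding clamp, rose from 447, 458 and 426 to 575, 542 and 579 (log2 fold change 0.35, standard error 0.0659, adjusted p = 0.000351 from limma). The small loader subunits changed less. Rfc5 went from 889.8 ± 38.4 to 1021 ± 47.9 normalized counts (n = 3 each, SD; log2 fold change 0.20, standard error 0.0569, adjusted p = 0.00728 from limma). Rfc2 went from 1168, 1195 and 1169.5 to 1056, 994 and 1055 (log2 fold change -0.19, standard error 0.0498, adjusted p = 0.0047 from limma). For Rfc5, 93.5% of the exon bases lie inside the span of another gene. Rfc3 had 317 ± 31.8 and 268 ± 32.3 normalized counts (adjusted p = 0.0568 from limma, and from 0.0154 to 1 over the alternatives) and Rfc4 119 ± 13.7 and 110.0 ± 18.3 (n = 3 each, SD; adjusted p = 0.538).

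RPA, the trimer that binds single-stranded DNA, fell in its large subunit only among those called. Rpa1 (ENSMUSG00000000751.14, chr11:75188992-75239455), which carries most of the DNA-binding domains, was at 3975, 3962 and 3809.8 normalized counts in WT and at 2916, 2909 and 2673 in GαqKO (log2 fold change -0.47, standard error 0.046, adjusted p = 7.80e-07 from limma). The groups were well apart. Rpa2 had 776 ± 78.5 and 732 ± 14.8 normalized counts (95% interval of the log2 fold change -0.23 to 0.07), and Rpa3 141 ± 9.2 and 159.7 ± 10.8 (n = 3 each, SD; 95% interval -0.07 to 0.44). The differences between Rpa1 and its partners were not tested, but the interval of Rpa1, -0.57 to -0.37, did not meet theirs.

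Of the 2 listed enzymes that mature Okazaki fragments, 1 was called higher and 1 lower, beside 31.8% and 34.1% of all genes tested. Fen1, the flap endonuclease, fell from 656, 525 and 568 to 449.8, 401 and 437 normalized counts (log2 fold change -0.44, standard error 0.085, adjusted p = 0.000476 from limma), and 82.4% of its exon bases lie inside the spans of other genes. Lig1, the ligase that seals the nicks, rose from 291, 285 and 290.1 to 337, 374 and 362 (log2 fold change 0.31, standard error 0.079, adjusted p = 0.00366 from limma). In neither did the groups overlap. The call of Lig1 was lost in DESeq2 on 5 libraries and with chromosome medians removed, where its log2 fold change was 0.13.

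Of the 3 nucleotide synthesis genes tested among the 44, 0 were called higher and 2 lower, beside 31.8% and 34.1% of all genes tested. Other nucleotide supply genes, of which 7 of 16 were higher, are given below. Rrm2 (ENSMUSG00000020649.12, chr12:24757811-24764145), the S-phase subunit of ribonucleotide reductase, fell from 2669, 2619 and 2265 to 1855, 1871 and 1969.8 normalized counts (log2 fold change -0.40, standard error 0.0598, adjusted p = 4.28e-05 from limma), while its large subunit Rrm1 had 2795 ± 166 and 2887 ± 27.8 (n = 3 each, SD, 95% interval -0.06 to 0.15 on the log2 scale). Tyms, which makes thymidylate, fell from 1056, 1135 and 1136 to 934, 937 and 882 (log2 fold change -0.27, standard error 0.0541, adjusted p = 0.000546 from limma). Tk1, the cytosolic thymidine kinase, was listed at 0 in every library. All of its exon bases lie inside the spans of other genes in the annotation, and of 1612 protein-coding genes placed in this way 71.6% were listed at 0 in every library, against 25.1% of 11540 that overlap no other gene. Its 0 is therefore not read as absence of the transcript.

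On some chromosomes the replication genes and the median of all genes moved the same way. All 6 replication genes of chromosome 8 (Orc6, Cdt1, Mcm5, Gins2, Gins3 and Gins4) had GαqKO values above WT, and 5 of them were called higher and 0 lower. Over all 803 genes tested there, the median log2 fold change was 0.29, and 53.4% were called higher and 20.5% lower. When the median of each chromosome was removed before the fit, Cdt1 stayed higher (log2 fold change 0.12), Mcm5 was lower (-0.25) and the other 4 were not called, at 0.06 for Orc6, 0.14 for Gins2, 0.02 for Gins3 and -0.01 for Gins4. On chromosome 4 the median of 860 genes was -0.35. Orc1, Orc3 and Rpa2 lie there, and relative to that median their log2 fold changes were -0.35, -0.28 and 0.27, the last turning from -0.08 to a call in the higher direction. Rrm1 on chromosome 7 (median 0.18) went from 0.05 to -0.13 and was then called lower, and Pola1 on the X chromosome (median -0.27) went from 0.03 to 0.30 and was called higher.

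Chromosome 5, with 8 replication genes and a median of 0.02 over 920 genes, showed no such common direction. Orc5, Rfc1, Pole and Rfc5 rose there, and Mcm7, Rfc2 and Tyms fell. Likewise Mcm10 and Orc4 on chromosome 2 (median 0.03) were lower, at -0.71 and -0.61 relative to that median, and Pcna, Mcm8 and Gins1 on the same chromosome were higher. With the medians removed, 14 of the 43 genes were higher and 15 lower, beside 30.8% and 31.8% of all genes tested, and 23 of the 33 genes called at first were called in the same direction. The calls lost were those of Orc1, Orc6, Mcm4, Cdc45, Gins2, Gins3, Prim1, Pole2, Lig1 and Gins4. Calls were gained by Mcm2 (-0.15) and Rfc3 (-0.27), both lower, and by Mcm5, Rpa2, Rrm1 and Pola1, as given above. The number of chromosomes in these lines was not measured.

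**Figure D3:**
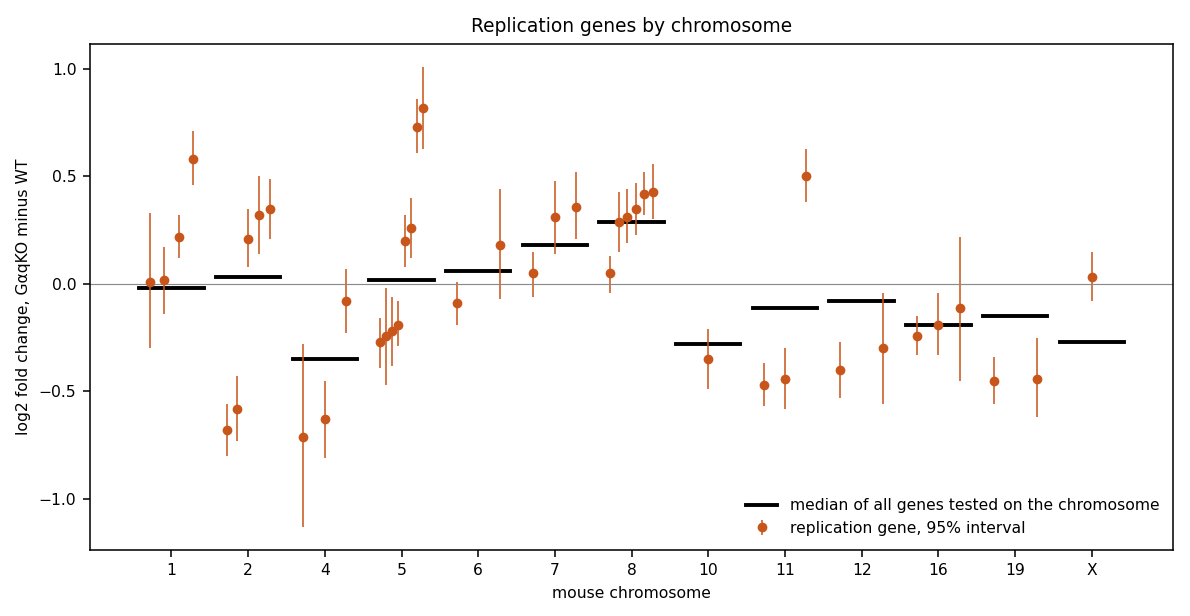
Log2 fold change (GαqKO minus WT) of each replication gene tested, with its 95% interval from limma, by chromosome; black bars give the median over all genes tested on that chromosome. The 6 genes of chromosome 8 sit above 0 around a median of 0.29, while those of chromosome 5 spread from -0.27 to 0.82 around a median of 0.02.

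Levels of different genes were compared as normalized counts per kb of the canonical transcript. Within MCM2-7 the order was Mcm2, Mcm5, Mcm4, Mcm6, Mcm3 and Mcm7 in WT, and in GαqKO Mcm6 stood above Mcm4. Mcm6 went from 362 ± 21.1 to 541 ± 30.6 normalized counts per kb and Mcm4 from 577 ± 9.7 to 488 ± 6.3 (n = 3 each, SD). The highest subunit, Mcm2, exceeded the lowest, Mcm7, by 3.48 times in WT and 3.82 times in GαqKO. ORC was far less even. Orc6 was at 666 ± 35.8 normalized counts per kb in WT and 849 ± 42.5 in GαqKO, and Orc1 at 16.8 ± 0.5 and 10.2 ± 0.7 (n = 3 each, SD), so that the highest exceeded the lowest by 39.6 times in WT and 83.3 times in GαqKO. Of the exon bases of Orc1, 88.4% lie inside the spans of other genes, as do 75.3% of those of Orc2. Genes placed wholly inside others were often listed at 0, and the part of such placement in these ratios was not tested. The level per kb of Orc5 was 106 ± 8.8 in WT, below Orc3 (208 ± 14.4) and Orc4 (133 ± 10.1), and 186 ± 6.5 in GαqKO, above Orc3 (134 ± 10.3) and Orc4 (88.5 ± 5.7; n = 3 each, SD). The clamp loader changed its order as well, with Rfc1 at 227 ± 17.9 normalized counts per kb in WT, within the spread of Rfc2 (236 ± 3.0), Rfc3 (241 ± 24.1) and Rfc5 (223 ± 9.6), and at 377 ± 9.7 in GαqKO, above these 3 and within the spread of Pcna (372 ± 13.2; n = 3 each, SD). In contrast, Pola2, Prim1, Prim2 and Pola1 kept this order in both groups, as did Rpa1, Rpa2 and Rpa3. The lengths take no account of isoforms or of exons shared with other genes. In the clamp and its loader, 93.5% of the exon bases of Rfc5 lie inside other spans, 36.1% of Rfc2 and 20.8% of Pcna. The part of this placement in the order of these genes was not tested.

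**Figure D4:**
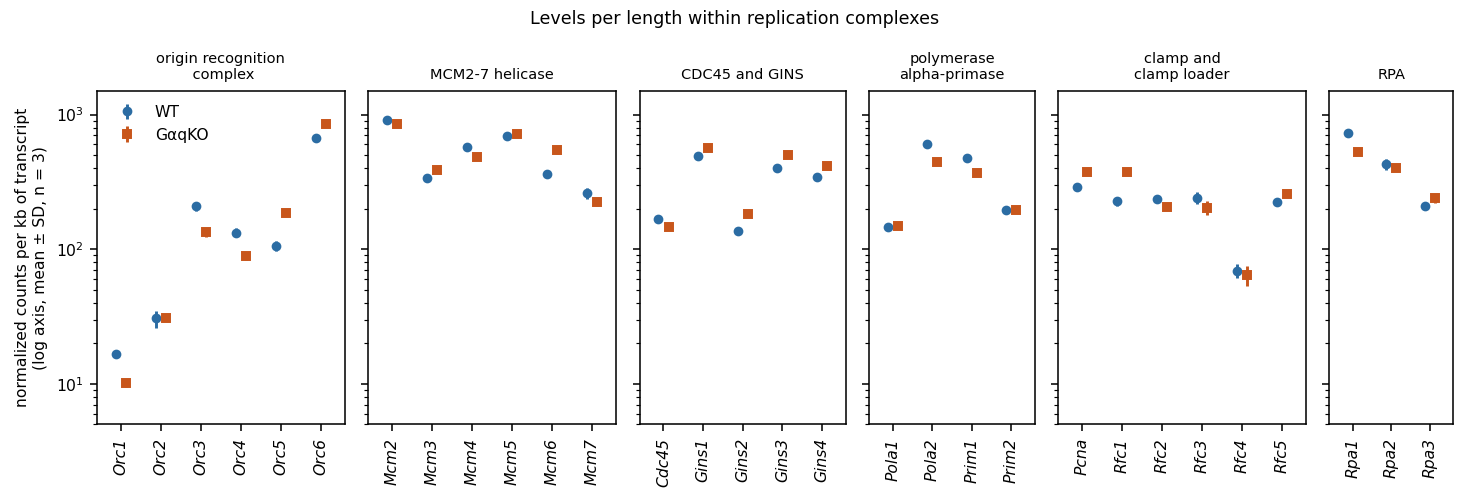
Normalized counts per kb of canonical transcript on a log axis (mean ± SD, n = 3) for the subunits of 6 groups of replication proteins, in WT (circles) and GαqKO (squares). Orc6 stands above the other ORC subunits in both groups, and Orc5, Mcm6 and Rfc1 move up relative to their partners in GαqKO.

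The wider pathway was read from 100 other genes in 7 lists, of which 96 were tested. At an adjusted p under 0.05 (limma), 41 were higher and 26 lower, beside 31.8% and 34.1% of all genes tested, and their median log2 fold change was 0.10. Of these, 6 passed the study's thresholds, all higher, and the difference from the replication genes was not tested. Of the 15 genes that control origin licensing and firing, 6 were higher and 3 lower. Ccne1, which encodes cyclin E1 of the G1/S transition, rose from 191, 194 and 181 to 469.5, 404 and 408 normalized counts (log2 fold change 1.17, standard error 0.0901, adjusted p = 6.44e-08 from limma). Ccna2, which encodes cyclin A2 of S phase, rose from 2218, 2343 and 2087 to 4812, 4528 and 4696 (log2 fold change 1.08, standard error 0.0489, adjusted p = 2.54e-10 from limma). Both had log2 fold changes under 1 once chromosome medians were removed (0.99 and 0.75). Their kinase partner Cdk2 showed the largest fall of the list (-0.30, and -0.02 relative to its chromosome). Genes of replication control that were not called included Gmnn, the CDT1 inhibitor (adjusted p = 0.053 from limma), and Dbf4, the activator of the CDC7 kinase (log2 fold change 0.02).

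Among 13 E2F and pocket protein genes 8 were higher and 3 lower, beside 31.8% and 34.1% of all genes tested. E2f1, an activator of S-phase genes, rose from 1249, 1347 and 1263 to 2885, 2894 and 2912 normalized counts (log2 fold change 1.17, standard error 0.0455, adjusted p = 5.18e-11 from limma), and in each GαqKO library it was above every WT library. Its dimer partner Tfdp1 and the repressor E2f4, both on chromosome 8, had log2 fold changes of 0.68 and 0.67, and 0.39 and 0.38 relative to that chromosome. Rb1, the retinoblastoma gene, had a log2 fold change of 0.99 at low counts (27.6 ± 0.8 and 56.3 ± 8.4 normalized counts, SD, n = 3 each). The activator E2f2 fell most (-0.56, adjusted p = 2.31e-06 from limma), but relative to the median of chromosome 4 it was at -0.21, and E2f6, Rbl2 and Tfdp2 were then lower, at -0.45, -0.35 and -0.31.

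Of the 21 fork and checkpoint genes tested, 8 were higher and 6 lower, beside 31.8% and 34.1% of all genes tested. Pole4, a small histone-fold subunit of polymerase epsilon, had 493, 454 and 438 normalized counts in WT and 1393, 1316 and 1392 in GαqKO (log2 fold change 1.57, standard error 0.0607, adjusted p = 5.08e-11 from limma), the largest change in the 100 genes. Its histone-fold partner Pole3 fell (log2 fold change -0.43, adjusted p = 2.55e-05 from limma), but was at -0.08 relative to the median of chromosome 4, where it lies. Pold3 rose (log2 fold change 0.58), as Pold1 and Pold2 did. Top2a, a topoisomerase that untangles DNA, was not called (0.01), and Atad5, which unloads PCNA, fell most in the list (-0.52). Chtf8 was listed at 0 in every library and, as for Tk1, all of its exon bases lie inside other genes.

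In the list of other nucleotide supply genes, 7 of 16 were higher and 4 lower. The counts of this list and of those that follow stand beside 31.8% higher and 34.1% lower of all genes tested. Dut, the dUTPase that keeps uracil out of DNA, rose from 1188, 1183 and 1117 to 2571, 2578 and 2549.8 normalized counts (log2 fold change 1.14, standard error 0.0453, adjusted p = 6.40e-11 from limma). Samhd1, which breaks down deoxynucleotides, fell most (2816 ± 63.2 to 1941 ± 150.4 normalized counts, SD, n = 3 each, log2 fold change -0.54). Of 10 replication-coupled chromatin genes tested, 2 were higher (Uhrf1, 0.48, and Asf1b, 0.41) and 3 lower (Chaf1b, -0.50, Nasp, -0.37, and Ssrp1, -0.36). Asf1a was listed at 0 in every library and, as for Tk1, all of its exon bases lie inside other genes. Relative to their chromosomes Asf1b and Nasp were at 0.11 and -0.02. Mitosis markers, which report dividing cells without being part of the fork, also split, with 8 of 16 higher and 5 lower. Ube2c, a ubiquitin-conjugating enzyme of mitotic exit, rose from 1294, 1380.4 and 1247 to 3117, 3028 and 3082 normalized counts (log2 fold change 1.24, standard error 0.0479, adjusted p = 5.12e-11 from limma), with 50.4% of its exon bases inside other genes. Mki67 had a log2 fold change of 0.60, and Aurkb fell most (-0.65). Of the 5 CDK inhibitor genes tested, Cdkn2d (0.56) and Cdkn1b (0.26) were higher, Cdkn2a (-0.72) and Cdkn1a (-0.59) were lower, and Cdkn2c was not called (0.03). Relative to the median of chromosome 4, Cdkn2a was at -0.36 and Cdkn2c at 0.38, the latter then called higher. Cdkn2b and Cdkn1c were listed at 0 in every library and lie wholly inside other genes.

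**Figure D5:**
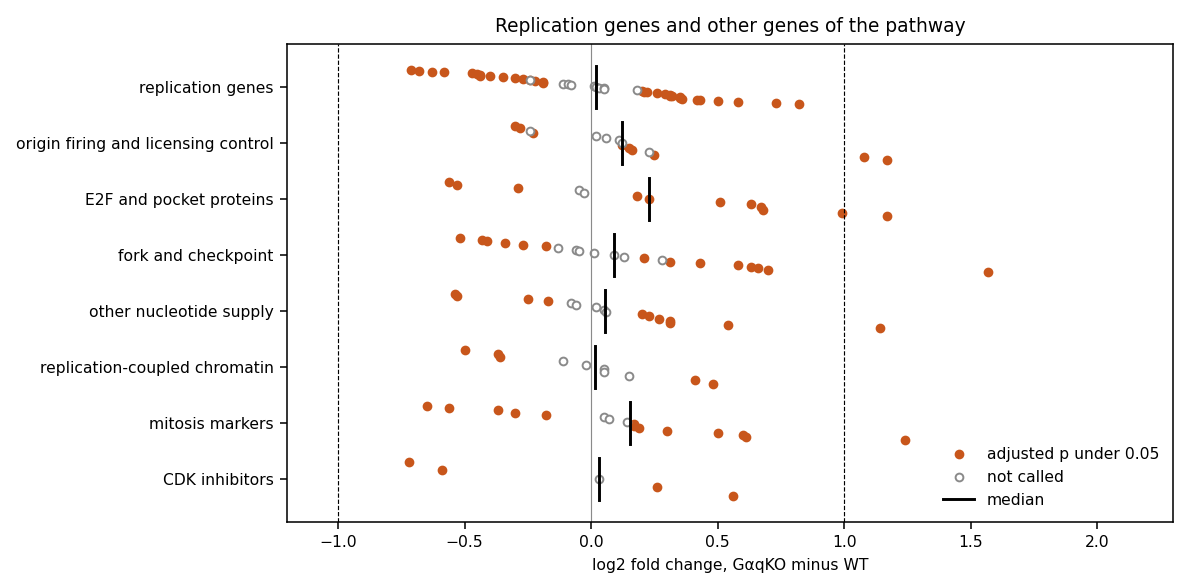
Log2 fold change (GαqKO minus WT) of the 43 replication genes and of 96 other genes of the pathway by list, one point per gene, filled where the adjusted p from limma is under 0.05, with bars at the list medians and dashed lines at -1 and 1. The replication genes stay inside the dashed lines, and 6 genes of the other lists lie to the right of 1.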

How the data were processed

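RNA was sequenced from 6 cultures of MEFs, 3 labelled WT and 3 labelled GαqKO. The authors selected poly-A RNA, aligned paired reads to GRCm39 (Rbowtie2), counted genes of GENCODE release 32 (featureCounts) and normalized with DESeq2. The deposited values are a signal, gene counts divided by 1 size factor per library. The library kit was stranded, but the strand setting of the counting and the tool versions are not given in the sources used here. Symbols came from GENCODE release 39 of the same build (98.9% of 56953 identifiers matched). Because the values are normalized, limma with a trend in the prior spread was fitted to log2(normalized count + 1) of all genes that passed the filter, with Benjamini-Hochberg adjustment. In all 6 libraries 100% of values were within 0.1 of a whole multiple of 1 read. Recovered reads of 5 libraries were given to edgeR and DESeq2. GαqKO replicate 3 met the same criterion and was left out of these count tests only because the value of 1 read in it lies so close to 1 that an automated check of recovered reads does not accept it. No column was left unmapped to a sample.

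Members and lists were chosen with earlier results of these data known. Every member is accounted for, and of the other lists the genes past the thresholds and the largest changes are named by rule; Gmnn, Dbf4, Pole3, Pold3, Mki67, Top2a, Rb1, Tfdp1, Tfdp2, Rbl2, E2f4, E2f6, Asf1b, Nasp, Ssrp1, Cdkn1a, Cdkn1b and Cdkn2c were named after their values were seen, as were Ddx3y and the chromosomes singled out. Lengths are those of the Ensembl canonical transcripts. In simulated data limma recovered 192 of 200 changed genes with 4 false calls among 14096. In the real data 65.8% of genes tested were called, so the simulation does not give the recovery to expect for the replication genes. The study states 3 biological replicates, and p-values measure the spread between these libraries. Alternatives covered pseudocount, filter, scaling, the prior spread, a threshold test, a replicate block, count tests, chromosome medians and each library left out. Versions were DESeq2 1.42.0, edgeR 4.0.16, limma 3.58.1, Python 3.11.15 and R 4.3.3.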

Additional observations from a re-analysis of the deposited data

How the results depend on the processing

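Across the alternatives run, no replication gene passed the fold threshold, and the counts of higher and lower genes kept within 1.5 times of 17 and 16 except in limma's treat test against a log2 fold change of 1. By construction that test needs larger changes. It called 0 replication genes higher and 0 lower (0 at an unadjusted p under 0.05) and 4 pathway genes higher and 0 lower, and the log2 fold change of 0.19 of Gnaq no longer passed. DESeq2 on 5 libraries called 14 higher and 11 lower and edgeR 17 and 16. The median log2 fold change of 0.016 became 0.064 in edgeR and 0.04 in DESeq2, both run without GαqKO replicate 3. In limma it was 0.036 without that library and 0.026 with TMM scaling of all libraries. The cause of these differences was not tested. With each library left out in turn, 17 genes were higher throughout and 14 to 16 lower, the median ran from -0.006 to 0.036, and the pathway counts from 36 to 42 higher and from 24 to 26 lower.

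Directions turned for Gins4, which was called higher at 0.29 and was at -0.01 with chromosome medians removed, and for genes that were not called. With those medians removed the log2 fold change was -0.25 for Mcm5, 0.07 for Rfc4, 0.27 for Rpa2 and -0.13 for Rrm1. Rfc4 was at 0.05 in edgeR, 0.03 in DESeq2 and 0.03 without GαqKO replicate 3. With single libraries left out Rfc4 ran from -0.21 to 0.03 and Orc2 from -0.11 (without WT replicate 1) to 0.08, Orc2 also being at -0.03 without GαqKO replicate 2, and Prim2 was at 0.00 and -0.01 without the same libraries. Leaving out genes with at least 50% of their exon bases inside other genes, an alternative chosen after seeing the data, gave 15 higher and 14 lower.

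The labels number the replicates in both groups, but the deviations of same-numbered libraries from their group means did not go together (r from -0.148 to -0.045), so the numbers were not taken to pair the cultures. With a replicate block 17 replication genes were higher and 16 lower, and 40 and 25 pathway genes. The genes with the fewest counts, Orc1, Orc2 and Rfc4, had standard errors of 0.196, 0.147 and 0.157 on the log2 scale, so small changes in them were not detectable at this depth.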
